A study of Mus musculus with 2 samples.

Results

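Cajal-Retzius cells were examined in a single cell library of the mouse telencephalic vesicle, labelled E12 and made from embryos of E11.5 to E12 by the study's methods. They were selected on their own counts: a barcode was kept with at least 2500 unique molecular identifiers (UMIs, 1 per captured transcript) and a mitochondrial share below 6%. It further had more UMIs of 6 neuronal genes (N: *Tubb3*, *Stmn2*, *Dcx*, *Elavl3*, *Gap43*, *Mapt*) than of 7 progenitor genes (A: *Sox2*, *Hes1*, *Hes5*, *Vim*, *Nes*, *Fabp7*, *Slc1a3*), at least 3 UMIs of *Reln*, at least 1 of *Trp73* and 0 of *Gad1* plus *Gad2*. This rule found 67 cells among the 2755 with N above A, a share of 2.43% (95% interval 1.89 to 3.08%, exact Clopper-Pearson), and among 11498 cells of this library past the depth and mitochondrial limits. The series holds 20110 barcodes in 2 libraries, and the septal library is described at the end. The 2688 other cells with N above A, referred to as other neurons, were the reference.

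The vesicle library pooled cells of 3 wild-type C57BL/6J embryos of 2 litters and was made with a 10x Genomics 3′ kit v3.1, with about 20000 cells as input. A library of septal explants pooled 8 E11.5 PGKCre;Rosa26YFP and 4 E12.5 Dbx1Cre;Rosa26tdTomato embryos, with about 10000 cells as input and kit v2. Its label gives the genotype as wild-type, and its Cre lines mark cells by a ubiquitous promoter and by past *Dbx1* expression. The study asked how the transcription factor Dbx1 and the adhesion molecule Pcdh8 act on each other in the developing cortex, and the vesicle cells served there to see where both genes are expressed. The vesicle library held 14283 barcodes and 194821794 UMIs (median 8503 per barcode), and the septal library 5827 barcodes and 83103280 UMIs (median 12722). The libraries shared 1 barcode sequence, which was not that of a Cajal-Retzius cell.

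With 1 library per tissue, embryos cannot be told apart and cells are not replicates, so no test was made and values are given with counting intervals. A level is the summed UMIs of a gene per 1000000 UMIs of the group (CPM) with its exact Poisson 95% interval, and a fold is the ratio of 2 such levels with its exact conditional interval. All intervals and floors cover counting error only. Fewer transcripts per cell and fewer expressing cells cannot be told apart in a summed level, so cells with a UMI are given beside it. The 67 cells together held 663810 UMIs (4727 to 28348 per cell, median 7887), and the other neurons 24050436 (median 7204).

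Cajal-Retzius cells are among the first neurons of the cortex. They are born at the edges of the pallium, including the cortical hem and the septum, spread over its surface and secrete reelin, the glycoprotein that guides the layering of later neurons. Those of the hem and septum express *Trp73*, which encodes p73, a relative of the tumour suppressor p53. The same factor is known from multiciliated epithelia, where it acts with the geminin-like proteins Gmnc and Mcidas in the programme that builds many motile cilia.

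Several genes of that programme had large folds over other neurons, and 3 of them lie side by side. *Ccno* (112987802 to 112990777), *Mcidas* (112993845 to 113000394) and *Cdc20b* (113035111 to 113091195) are read from the + strand of chromosome 13 within 103 kb of GRCm38. Their start windows (250 bases before to 50 after the start, GRCm38.p6, RefSeq), with that of the p53 family target *Cdkn1a* on chromosome 17, are shown because *Mcidas*, *Cdc20b* and *Cdkn1a* are among the 25 leading higher genes described below and *Ccno* (12.2-fold) lies beside them. Capitals mark GTTGCC, the core of the element bound by RFX factors, in the first 2, and 2 half-sites of the p53 family element in the last. The *Cdkn1a* window also holds 1 GTTGCC, left in lower case, and the other start window of that gene, chr17:29093519-29093818, holds neither element.
Ccno, chr13:112987552-112987851 (+ strand): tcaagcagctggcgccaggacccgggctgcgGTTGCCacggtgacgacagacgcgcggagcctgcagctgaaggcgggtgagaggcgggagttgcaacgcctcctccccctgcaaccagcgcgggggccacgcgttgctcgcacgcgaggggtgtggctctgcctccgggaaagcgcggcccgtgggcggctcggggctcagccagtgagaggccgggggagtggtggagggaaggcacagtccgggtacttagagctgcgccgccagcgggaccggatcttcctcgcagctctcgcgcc
Mcidas, chr13:112993618-112993917 (+ strand): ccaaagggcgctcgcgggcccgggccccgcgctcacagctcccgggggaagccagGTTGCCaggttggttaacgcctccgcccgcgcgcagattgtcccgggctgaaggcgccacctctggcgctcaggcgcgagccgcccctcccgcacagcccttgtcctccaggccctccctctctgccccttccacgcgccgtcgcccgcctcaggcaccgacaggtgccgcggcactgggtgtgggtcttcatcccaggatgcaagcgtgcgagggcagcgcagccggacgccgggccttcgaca
Cdc20b, chr13:113035129-113035428 (+ strand): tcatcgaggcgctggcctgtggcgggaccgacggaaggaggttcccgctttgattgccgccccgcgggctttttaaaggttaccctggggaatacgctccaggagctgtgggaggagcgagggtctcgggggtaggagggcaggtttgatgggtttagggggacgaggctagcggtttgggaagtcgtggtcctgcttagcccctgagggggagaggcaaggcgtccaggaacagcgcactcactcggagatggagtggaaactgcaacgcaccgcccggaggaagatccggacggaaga
Cdkn1a, chr17:29090729-29091028 (+ strand): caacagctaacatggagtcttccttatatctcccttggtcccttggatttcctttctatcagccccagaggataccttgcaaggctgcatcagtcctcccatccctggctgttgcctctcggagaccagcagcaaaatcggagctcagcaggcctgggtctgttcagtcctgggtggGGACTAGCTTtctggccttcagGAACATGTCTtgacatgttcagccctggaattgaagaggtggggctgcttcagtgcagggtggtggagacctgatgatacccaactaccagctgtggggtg
An intron of *Cdc20b* also encodes miR-449 genes, with the shared seed (bases 2 to 8) in capitals and found as well in miR-34a-5p and miR-34b-5p. No miRNA was measured here.
mmu-miR-449c-5p, chr13:113036008-113036028 (+ strand): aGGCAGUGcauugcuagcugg
mmu-miR-449a-5p, chr13:113037549-113037570 (+ strand): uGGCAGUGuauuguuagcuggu

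The letters GTTGCC, searched on both strands, were in a start window of 8 of the 21 leading higher genes that had one (38.1%), against 15.4% of the 7428 compared genes with a window and 14.1% of all 27025 genes. A half-site of the p53 family element was in 3 of the 21 (14.3%), against 8.13% of the compared genes. These were 2 of 9 elements searched. Of the 7 others, AACGG (bound by MYB) was in 28.6% of the leading genes against 28.7% of the compared genes, CCAAT in 38.1% against 44.1%, TTCCCGCC (E2F) in 4.76% against 5.02% and the E-box CAGCTG in 23.8% against 17.1%. GTAAACA (FOX) and TAATTA (homeodomain) were each in 9.52%, that is in 2 genes, against 3.14% and 3.06%, and the palindromic EBF element was in 1 gene. The elements were chosen with the leading genes known, and a match is a description of letters only. Other neighbours of the chromosome 13 genes had smaller folds: *Mtrex*, which encodes an RNA helicase, was at 1.12-fold and *Dhx29* at 1.70-fold, and *Gpx8*, inside *Cdc20b* on the other strand, at 0.542-fold.

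The values used for the selection are a description. *Reln* ran from 3 to 22 UMIs per cell (median 5) and *Trp73* from 1 to 10 (median 3), which summed to 640 CPM against 81.2 in other neurons for *Reln* and to 337 against 12.1 CPM for *Trp73*. At the threshold, 11 cells had exactly 3 *Reln* UMIs and 9 more would have entered at 2, and 12 cells had 1 *Trp73* UMI while 187 neurons met every other condition with 0. Outside by the *Gad1* plus *Gad2* condition alone were 3 cells, outside by A at or above N were 18 (median 66296.5 UMIs), and outside by mitochondrial share was 1 cell. In 2 of the 67 cells N exceeded A by at most 5 UMIs. Scrublet, a doublet caller, marked 10 of the 67 and 248 of the other neurons (9.23%), and 807 of all barcodes (5.65%). The share was thus largest among the 67. Their median doublet score was 0.086, against 0.0744 in the other neurons. The marked cells were kept. Without them 57 Cajal-Retzius cells remained.

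The cell type name was checked against markers that the rule did not use. *Lhx1*, a LIM homeodomain factor of these cells, was at 395 CPM (348 to 445) against 44.8 in other neurons, 8.81-fold (7.66 to 10.1), with 0 to 16 UMIs per cell (median 3) and a UMI in 58 of 67 cells. *Ebf3*, a helix-loop-helix factor of early neurons, was at 432 against 120 CPM (3.60-fold) in 61 cells. *Cacna2d2*, a calcium channel subunit, was at 108 against 40.0 CPM (2.71-fold). These 3 of the 7 markers compared, beside *Reln* and *Trp73*, were at least 2-fold higher and none was 2-fold lower. The median log2 fold of the 7 was 0.78, against 0.03 over all 9355 compared genes, of which 5.29% were higher and 3.35% lower. *Lhx5*, a LIM factor related to *Lhx1*, was at 1.71-fold (1.34 to 2.16) with a UMI in 44 cells, and *Nhlh2* at 1.42-fold. *Calb2*, which encodes calretinin, did not follow the other markers, with 60.3 CPM against 80.6, 0.747-fold (0.532 to 1.02). *Ndnf* had 11 UMIs. Against neurons without *Gad1* and *Gad2*, *Lhx1* was at 5.86-fold and *Ebf3* at 2.37-fold, whereas *Lhx5* was at 1.18-fold, *Nhlh2* at 0.918-fold and *Calb2* at 0.493-fold.

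Free RNA gives UMIs in cells that do not express a gene. Its level was read from 342 barcodes with N at or below A and at least 20% of UMIs from globin genes. Their median was 5428.5 UMIs, against 7887 in the Cajal-Retzius cells. Globin-rich barcodes with N above A, which reached 66.4% globin among other neurons, were not part of them. This blank was therefore in part chosen for few neuronal UMIs, and its shares for neuronal genes may be too low. *Lhx1* had a UMI in 86.6% of the Cajal-Retzius cells and in 0.292% of those barcodes, and *Cdkn1a* in 94.03% and 1.75%. *Trp73*, *Mcidas*, *Ccno*, *Cdc20b*, *Deup1* and *Foxj1* had 0 UMIs in the 342 barcodes, which allows a share of up to 0.877%. *Gmnc* had 1 UMI there (0.292%). *Reln* did have UMIs there, in 62.3% of the globin-rich barcodes at 214 CPM, so these barcodes are no blank for *Reln*.

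Of 9355 genes with a mean level of at least 10 CPM over both groups, 495 (5.29%) were at least 2-fold higher in the Cajal-Retzius cells and 313 (3.35%) at least 2-fold lower. With a mean of at least 10 CPM, a gene under 6.67 CPM in one group is at least 2-fold apart by arithmetic, so that the filter alone fixed the direction and call of 120 of the higher and 75 of the lower genes. The intervals of both levels were apart for 460 of the higher and 257 of the lower genes. The depth is shallow on the lower side, where 204 of the 313 genes had 10 UMIs or fewer in the Cajal-Retzius cells. The largest folds were led by *Dynlrb2*, which encodes a dynein light chain, at 60.3 CPM (43.0 to 82.1) against 1.91, 31.5-fold (20.1 to 49.2). All 25 leading higher genes kept at least a 2-fold difference under each of the 17 alternative settings. Among these, the level filters of 5 and 50 CPM and the setting without a filter leave every fold as reported. Those settings could not fail. The 25 genes had been picked for their folds, and 19 of them were under 6.67 CPM in other neurons, where the level filter fixes the call. Of the 25 leading lower genes, 18 were under that level in the Cajal-Retzius cells. All 25 leading lower genes kept at least a 2-fold difference under all but 2 of the 17 settings. These 2 were the reference without *Gad1* and *Gad2* described below and the thinning of every cell to 2500 UMIs. After thinning 17 of the 25 remained at least 2-fold lower, and *Th* (0.905-fold), *Sez6l* (0.836), *Slc18a2* (0.708) and *Slco3a1* (0.665) were among those that did not. Many of the leading higher genes sort into groups of ciliary genes and of targets of the p53 family, whose lists were put together after these values were seen.

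**Figure D1:**
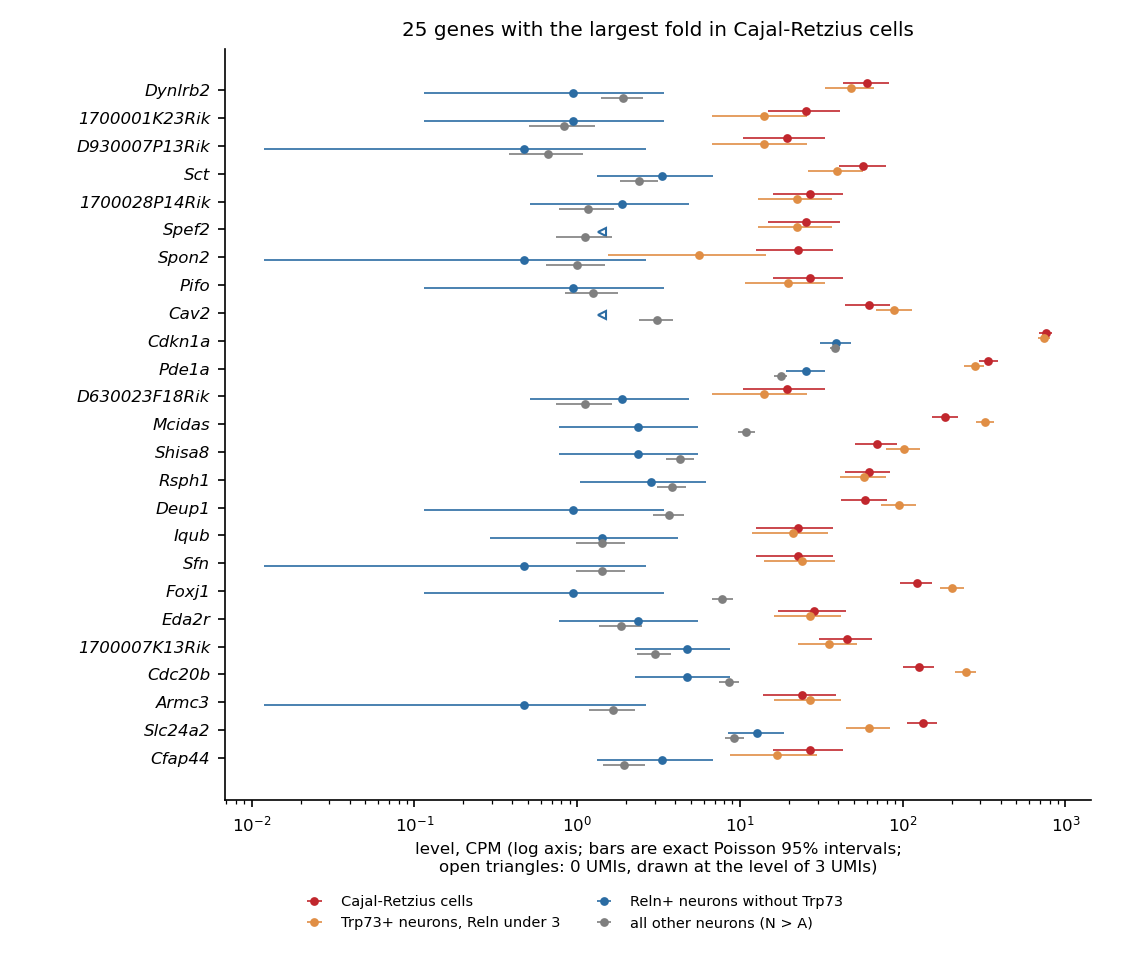
Level (CPM, log axis) of the 25 genes with the largest fold, in Cajal-Retzius cells (red), neurons with *Trp73* and *Reln* under 3 UMIs (orange), neurons with *Reln* and no *Trp73* (blue) and all other neurons (grey). Points are summed levels and bars exact Poisson 95% intervals; red and orange points lie right of blue and grey for each gene, and red lies at least 2-fold right of orange for *Spon2* (4.01-fold) and *Slc24a2* (2.14-fold).

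The regulators of multiciliation formed the first group, and 9 of 13 compared members were at least 2-fold higher and 1 lower. The level filter alone fixed 2 of the 9, and of all compared genes 5.29% were higher and 3.35% lower. *Gmnc*, which encodes GEMC1 and acts at the top of the programme, was at 443 CPM (394 to 497) against 54.4, 8.14-fold (7.15 to 9.25). Its UMIs lay in 20 of 67 cells, with 1 to 96 per cell (median 8 among the 20). The cell with 96 held 32.7% of them, and without that cell the level was 304 CPM and the fold 5.58. *Gmnc* was thus carried by a minority of the cells.

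*Mcidas*, which encodes multicilin, was at 182 CPM (151 to 218) against 10.98, 16.6-fold (13.3 to 20.7), with a UMI in 28 cells and at most 11 in a cell. *Ccno*, a cyclin needed for basal body production, was at 161 CPM against 13.3 (12.2-fold) in 28 cells. *Cdc20b* was at 127 CPM against 8.61 (14.7-fold) in 30 cells. *Deup1*, a component of the deuterosome on which centrioles are multiplied, was at 58.8 CPM against 3.66 (16.1-fold) in 22 cells. *Foxj1*, the master factor of motile cilia, was at 122 CPM (96.9 to 152) against 7.82, 15.6-fold (11.9 to 20.4), with 0 to 6 UMIs per cell and a UMI in 31 cells. The factors *Rfx2* (5.14-fold) and *Myb* (4.36-fold) and the centriolar *Cep152* (3.74-fold) were higher as well. *Rfx3*, a ciliary factor that neurons also express, was at 298 against 270 CPM (1.10-fold), and *E2f5*, a partner of multicilin, was at 16.6 against 33.8 CPM. The size of the folds depended on the choice of cells. Against neurons without *Gad1* and *Gad2* they were smaller, 5.11 for *Gmnc*, 10.4 for *Mcidas*, 7.72 for *Ccno*, 9.18 for *Cdc20b* and 9.99 for *Deup1*. With a *Reln* minimum of 1 UMI they were larger, 30.1 for *Mcidas*, 28.1 for *Ccno*, 27.7 for *Cdc20b* and 26.3 for *Foxj1*.

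These genes shared cells. A UMI of *Gmnc*, *Mcidas* and *Foxj1* together was found in 18 of the 67 cells, and 33 cells had none of the 3. Of the 20 cells with *Gmnc*, 19 had *Mcidas* and 19 had *Foxj1*, and 25 cells had both *Mcidas* and *Foxj1*. Depth bears on such counts: with each cell thinned to 2500 UMIs, the share with a UMI went from 29.9 to 22.4% for *Gmnc*, from 41.8 to 25.4% for *Mcidas* and from 46.3 to 26.9% for *Foxj1*. In the other neurons thinned alike, these shares were 3.13%, 1.71% and 1.71%.

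Structural genes of the motile cilium followed, of which 21 of 22 compared members were at least 2-fold higher. This count was largely set by the level filter, since 17 of the 22 were under 6.67 CPM in other neurons and were compared through the Cajal-Retzius cells alone. Of the 5 others, 4 were higher, where 5.29% of all compared genes were. *Rsph1*, a radial spoke head protein, was at 61.8 CPM against 3.83 (16.1-fold) in 25 cells. *Spef2* (22.8-fold), *Pifo* (21.7-fold), *Armc3* (14.5-fold), *Cfap44* (13.9-fold) and *Enkur* (11.9-fold) had 16 to 19 UMIs each. *Spag6l*, of the central pair of microtubules, was at 8.10-fold, *Ccdc39*, which spaces the dynein arms, at 7.73-fold, *Tekt1*, a tektin, at 5.94-fold and *Dnah9*, an axonemal dynein heavy chain, at 5.87-fold. Of the 42 members of the list, 20 fell under the level filter and were not compared.

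Targets of the p53 family were the next group, with 12 of 22 compared members at least 2-fold higher and 1 lower. The level filter alone fixed 4 of the 12, and of all compared genes 5.29% were higher and 3.35% lower. *Cdkn1a*, which encodes the cell cycle inhibitor p21, was at 756 CPM (692 to 825) against 38.4, 19.7-fold (17.6 to 22.0), with 0 to 28 UMIs per cell (median 6) and a UMI in 63 of 67 cells. *Phlda3*, an inhibitor of Akt, was at 105 CPM against 9.19 in 34 cells. *Sfn*, which encodes 14-3-3 sigma, was at 16.0-fold, *Eda2r*, a death domain receptor, at 15.3-fold and *Pidd1*, another death domain protein, at 12.1-fold. *Sesn2*, *Ccng1*, *Trp53inp1*, *Aen*, *Bbc3*, *Mdm2* and *Zmat3* lay between 5.37-fold and 2.06-fold. *Gadd45a* was the lower member, at 31.6 against 73.3 CPM.

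The list of the p53 family and cell death genes, chosen with the design, held 12 compared genes. *Cdkn1a*, *Bbc3* and *Mdm2* were higher and *Bcl2*, the anti-apoptotic founder of its family, was lower, with 2 UMIs (3.01 against 18.2 CPM), a call that the level filter fixed. The median log2 fold of this list was 0.17, against 0.03 over all compared genes, of which 5.29% were higher and 3.35% lower. *Trp63*, the third member of the family, had 0 UMIs in the 67 cells.

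The chosen cells made up 0.583% of the 11498 kept cells (0.452 to 0.739%). They held 24.9% of the *Trp73* UMIs of those cells, which the selection sets, and 21.4% of the *Cdkn1a*, 17.98% of the *Mcidas*, 17.1% of the *Lhx1* and 14.8% of the *Cdc20b* UMIs. Their part of the *Gmnc* UMIs was smaller, 5.97%, and 51.7% of those lay in 733 cells with A at or above N and at least 2 UMIs of *Lmx1a* plus *Wnt3a*.

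The other leading higher genes were of mixed kinds. *Pde1a*, a calmodulin-dependent phosphodiesterase, was at 336 CPM against 17.8 (18.8-fold) in 42 cells. *Sct*, which encodes the peptide secretin, was at 57.2 CPM against 2.41 (23.7-fold) in 20 cells. *Slc24a2*, a sodium, potassium and calcium exchanger, was at 133 CPM against 9.23 (14.4-fold), *Cav2*, a caveolin, at 20.1-fold, and *Spon2*, a secreted spondin, at 22.6-fold. *Shisa8* (16.2-fold) and *Iqub* (16.0-fold) were also among them. The remaining 5, *1700001K23Rik* (30.8-fold), *D930007P13Rik* (29.4-fold), *1700028P14Rik* (23.3-fold), *D630023F18Rik* (17.4-fold) and *1700007K13Rik* (15.1-fold), are genes without a trivial name.

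**Figure D2:**
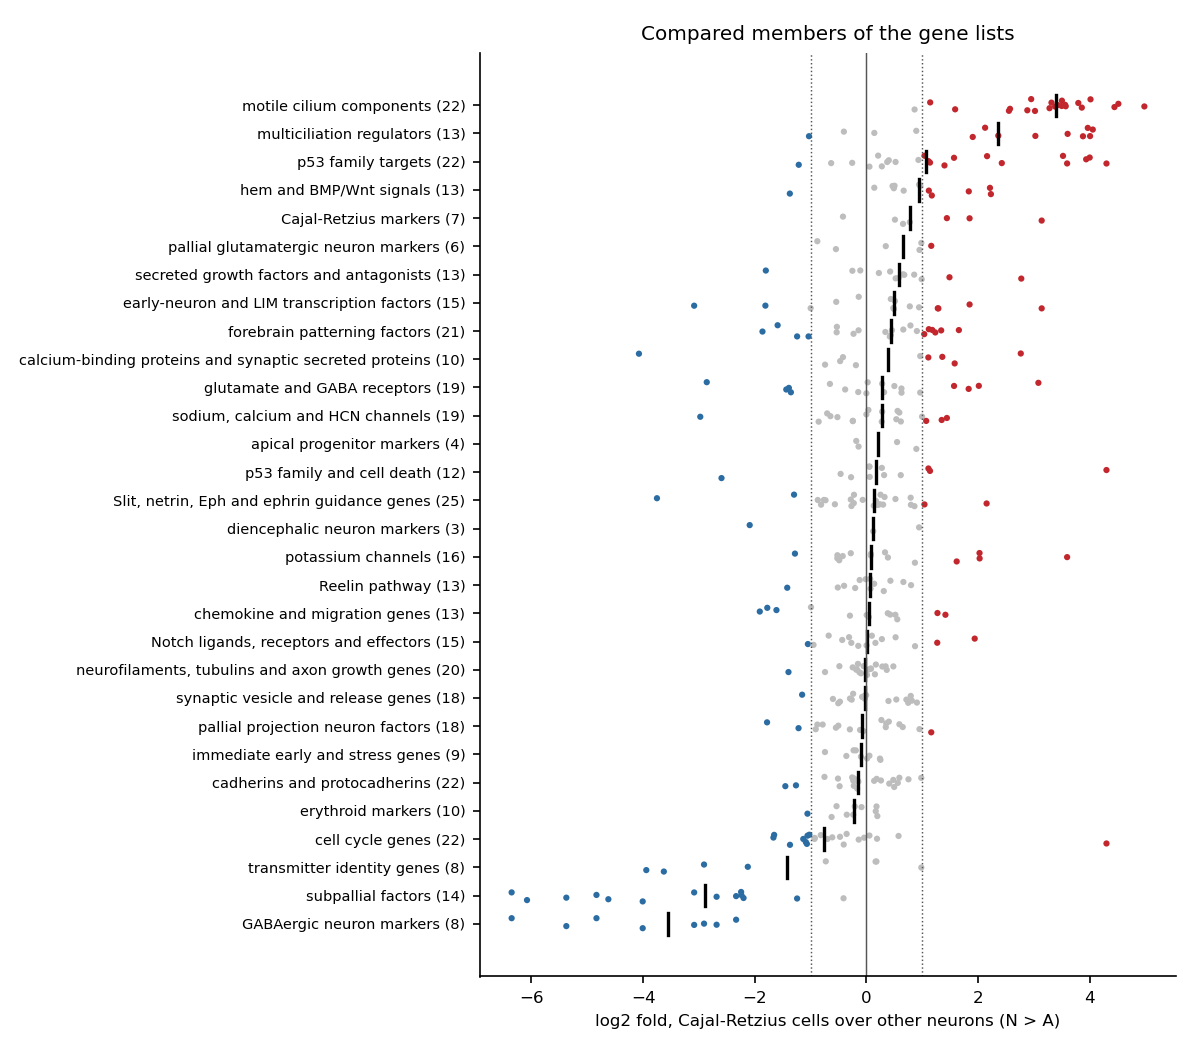
Log2 fold of each compared member of 30 gene lists (number in brackets), Cajal-Retzius cells over other neurons. Red and blue points are at least 2-fold higher or lower (dotted lines), and black bars are medians of the compared members, which the level filter raises or lowers in lists with few UMIs in one group. Motile cilium components lie farthest right and GABAergic neuron markers farthest left.

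On the lower side stood genes of GABAergic and subpallial neurons. Of the subpallial factors, 13 of 14 compared members were at least 2-fold lower and none was higher, and so were 8 of 8 compared GABAergic markers. The level filter alone fixed 6 of the 13 and 4 of the 8, and of all compared genes 3.35% were lower. The condition of 0 UMIs of *Gad1* plus *Gad2* was part of the selection, and 998 of the 2688 other neurons had such UMIs, so a lower level of genes of those neurons is set in part by the rule. *Dlx1*, a homeobox factor of the ganglionic eminences, had 3 UMIs, at 4.52 against 129 CPM (28.5-fold lower, 9.76 to 138). *Dlx5* and *Lhx8* had 1 UMI each, *Sp9* had 3 and *Dlx2* had 6. *Dlx6os1* had 5 UMIs and *Isl1*, a LIM factor of striatal neurons, had 10, each in a single cell. *Gm14204* and *Dlx1as* were at 0 UMIs, so that their levels were at least 15.9-fold and 13.9-fold lower, against a floor of 3 UMIs over the group.

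Genes of other roles were among the leading lower ones too. *Nrxn3*, a presynaptic adhesion molecule, was at 134 CPM (108 to 165) against 2258, 16.8-fold lower. *Adarb2*, a relative of RNA editing enzymes, was at 15.1 against 370 CPM (0.0407-fold), *Unc5d*, a netrin receptor, at 4.52 against 60.9 CPM, and *Prox1*, a homeobox factor, at 7.53 against 58.8 CPM. With only other neurons of 0 *Gad1* plus *Gad2* UMIs as the reference, an alternative chosen with the design, 508 genes were higher and 273 lower, and 20 of the 25 leading lower genes remained at least 2-fold lower. *Nrxn3* was not one of them, at 0.782-fold, nor were *Pnoc* (0.656), *Sh3rf3* (0.564) and *Arl4d* (0.557), and *Gm14204* had no fold there. Against that reference *Dlx1* remained at 0.0834-fold, *Prox1* at 0.205, *Unc5d* at 0.254 and *Adarb2* at 0.399.

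Among factors of early neurons and of the LIM class, 4 of 15 were higher and 2 lower. Beside *Lhx1* and *Ebf3* these were *Barhl2*, a homeobox factor of the early forebrain, at 82.9 against 33.9 CPM (2.44-fold), and *Nhlh1* at 2.42-fold. *Neurog2*, which drives pallial neurogenesis, was at 34.6 against 121 CPM (0.285-fold), with a UMI in 9 cells. With a *Reln* minimum of 1 UMI it was at 0.545-fold, not past 2-fold. *Tbr1*, the T-box factor of early-born glutamatergic neurons, was at 304 CPM (264 to 349) against 136, 2.24-fold, and was the one member of 18 pallial projection neuron factors to be higher, while *Mef2c* and *Pou3f1* were lower. Over all compared genes 5.29% were higher and 3.35% lower, and the counts of the 18 factors were close to these shares. With *Gad1* and *Gad2* neurons left out of the reference, *Tbr1* was at 1.44-fold, *Barhl2* and *Nhlh1* were at 1.56-fold each, and *Pou3f1* turned to 1.35-fold, whereas *Lhx1* and *Ebf3* stayed above 2-fold. *Slc17a6*, the vesicular glutamate transporter VGLUT2, was at 268 against 136 CPM, 1.98-fold (1.69 to 2.30), and at 1.28-fold against neurons without *Gad1* and *Gad2*. Of the 8 compared genes of transmitter identity, 4 were lower, *Slc18a2*, *Th* and *Slc32a1* among them, all 4 by the level filter alone, and none was higher.

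Patterning factors of the forebrain gave 6 higher and 4 lower genes of 21, where all compared genes gave 5.29% higher and 3.35% lower. *Dmrta2* (3.15-fold) and *Emx2* (2.53-fold), both graded towards the medial pallium, were at 184 and 194 CPM, and *Zic2* was at 2.35-fold and *Zic5* at 2.05-fold. *Lmx1a*, a factor of the cortical hem, had 10 UMIs (2.17-fold, 1.02 to 4.09) in 7.46% of the cells. It was at 51.7 CPM in the globin-rich barcodes, with a UMI in 28.7% of them, more than in the Cajal-Retzius cells or the other neurons (6.94 CPM), so that these barcodes are no blank for *Lmx1a* either. *Nr2f1* (0.332-fold), *Nr2f2* (0.275-fold) and *Six3* (0.423-fold) were among the lower ones. Against neurons without *Gad1* and *Gad2*, *Emx2* was at 1.79-fold, *Lmx1a* at 1.78-fold, *Zic5* at 1.74-fold, *Zic2* at 1.98-fold and *Six3* at 0.883-fold, none of them past 2-fold. Of 13 compared hem, BMP and Wnt genes, 5 were higher, *Lmx1a* and, by the level filter alone, *Bmp7* among them, and 1, *Id3*, lower. *Id3* was at 0.386-fold, but at 0.693-fold without the Scrublet doublets and at 0.676-fold with a *Reln* minimum of 1 UMI. *Rspo3*, an amplifier of Wnt signals, was at 755 CPM (690 to 824) against 163, 4.63-fold, with 0 to 56 UMIs per cell (median 3) and a UMI in 48 cells. *Bmp7* (4.69-fold), *Wnt5a* (2.25-fold) and *Lmx1a* had 10 or 11 UMIs each, and *Nkd1*, a Wnt antagonist, was at 3.56-fold. *Wnt3a*, a ligand of the hem itself, had 0 UMIs.

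*Dbx1* and *Pcdh8*, on which the study centres, had few UMIs in these cells. *Dbx1*, a homeobox factor of septal and ventral pallial progenitors, had 12 UMIs in 9 cells, 18.1 CPM (9.34 to 31.6) against 7.98, 2.26-fold (1.15 to 4.05). Without the cell with the most *Dbx1* UMIs the fold was 1.91, and against neurons without *Gad1* and *Gad2* it was 1.63. *Pcdh8* had 8 UMIs in 5 cells, 12.1 CPM (5.20 to 23.7) against 10.1, 1.20-fold (0.511 to 2.40). Without the cell with 3 of the 8 UMIs *Pcdh8* was at 0.782-fold, and against neurons without *Gad1* and *Gad2* at 1.73-fold. The intervals of both genes are wide at this depth. *Pcdh9*, another protocadherin, was at 404 against 482 CPM (0.838-fold, 0.739 to 0.946) with a UMI in 27 cells, and 1 cell held 25% of its UMIs. *Pcdh19* was at 0.717-fold and *Cdh2*, which encodes N-cadherin, at 1.10-fold (0.988 to 1.22) with a UMI in 66 cells. Of 22 compared cadherins and protocadherins none was higher, and *Cdh8* and *Cdh7* were lower (median log2 fold -0.15), counts close to those that the 5.29% higher and 3.35% lower of all compared genes would give. Neither was past 2-fold against neurons without *Gad1* and *Gad2*, with *Cdh8* at 1.02-fold and *Cdh7* at 0.541-fold. *Nr4a2*, a marker of claustrum and subplate neurons, was at 1.20-fold and the Notch ligand *Jag1* at 1.83-fold (0.899 to 3.34).

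Of 13 compared genes of the reelin pathway other than *Reln*, 0 were higher and 1 lower, close to the shares over all compared genes (5.29% and 3.35%). *Dab1*, the adaptor that passes the reelin signal on inside responding cells, was the lower one, at 49.7 CPM (34.2 to 69.8) against 133 (0.374-fold). The reelin receptors *Vldlr* (1.74-fold, 1.002 to 2.83) and *Lrp8* (0.991-fold) stayed within 2-fold, but *Vldlr* was at 3.32-fold against neurons without *Gad1* and *Gad2*. Of 13 genes of chemokines and migration, 2 were higher and 3 lower. *Cxcr4*, the receptor for the meningeal chemokine Cxcl12, was at 18.1 against 7.48 CPM (2.42-fold, 12 UMIs) and *Sema6a*, a membrane semaphorin, at 557 against 209 CPM (2.67-fold). The class 3 semaphorin *Sema3a* (0.266-fold) and the semaphorin receptors *Plxna2* (0.292-fold) and *Nrp1* (0.327-fold) were lower. *Slit1*, a secreted repellent, was at 79.8 against 17.96 CPM (4.45-fold), and *Efna3* at 2.06-fold, while *Unc5d* and *Slit3* were lower, of 25 guidance genes, again near the shares over all genes and with the call of *Unc5d* fixed by the level filter. Against neurons without *Gad1* and *Gad2*, *Cxcr4* (1.83-fold), *Efna3* (1.69-fold), *Sema3a* (0.539-fold) and *Plxna2* (0.549-fold) were not past 2-fold.

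Receptors and channels showed members in both directions, where over all compared genes 5.29% were higher and 3.35% lower. Of 19 compared glutamate and GABA receptor genes, 4 were higher and 4 lower. *Grin1*, the obligatory subunit of NMDA receptors, was at 21.1 against 2.49 CPM (8.45-fold, 14 UMIs in 12 cells, a call fixed by the level filter), and the AMPA and kainate subunits *Gria3* and *Grik4* were at 3.56-fold and 2.97-fold. *Grm7* was at 4.04-fold, and at 2.86-fold without the cell that held 30.4% of its UMIs. Among the lower members were *Grik3*, *Gria1* and *Grid1*, which against neurons without *Gad1* and *Gad2* were at 0.736, 0.531 and 0.637-fold. Of 19 sodium, calcium and HCN channel genes, *Cacna2d2*, *Scn3b* (2.55-fold) and *Cacna1c* (2.1-fold) were higher and *Cacna1e* was lower, by the level filter alone, and of 16 potassium channel genes 4 were higher and *Kcnh2* was lower. *Kcnj6*, a G-protein gated potassium channel, was at 27.1 against 2.25 CPM (12.1-fold, a call fixed by the level filter), *Kcnc1* at 4.07-fold and *Kcnk2* at 3.07-fold. *Kcnip4* (4.08-fold) rested on 1 cell with 63.0% of its UMIs, without which it was at 1.56-fold. Of 18 synaptic vesicle genes *Syt4* was lower, and of 20 compared neurofilament, tubulin and axon growth genes *Nefm* was lower, and none was higher in either list (medians -0.03 and -0.02), again close to the shares over all compared genes. Of 10 calcium-binding and secreted synaptic genes, 4 were higher and *Nrxn3* was lower. *Nptxr*, a receptor for neuronal pentraxins, was at 6.79-fold with 12 UMIs and a call fixed by the level filter, *Hpcal1*, a calcium sensor, at 2.99-fold and *Necab3* at 2.57-fold (1.71-fold against neurons without *Gad1* and *Gad2*).

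Of 22 compared cell cycle genes, *Cdkn1a* was the one higher member and 8 were lower (median log2 fold -0.76). Over all compared genes 5.29% were higher and 3.35% lower. *Ccnb1*, a mitotic cyclin, was at 36.2 against 115 CPM, *Top2a* at 142 against 297 CPM and *Ccnd2* at 163 against 356 CPM, whereas *Cdk1* was at 130 against 133 CPM. Of 15 Notch genes, *Jag2*, a ligand, was at 30.1 against 7.86 CPM (3.83-fold) in 18 cells and *Notch3* at 2.41-fold, and the ligand *Dll1* was lower (0.483-fold). These 2 higher and 1 lower were not far from the shares over all compared genes. Without cells above 15000 UMIs *Notch3* was at 1.13-fold, and with a *Reln* minimum of 1 UMI *Dll1* was at 0.686-fold. Of 13 secreted growth factors and antagonists, 2 were higher and 1 lower, again not far from the shares over all compared genes. *Pdgfa*, a growth factor, was at 60.3 CPM (43.0 to 82.1) against 8.81 (6.84-fold) in 20 cells. *Fgf8* was at 2.80-fold with 13 UMIs, but 1 cell held 61.5% of them and without it the fold was 1.13. *Fgf15*, the lower member, had 3 UMIs, and the level filter fixed its call. Of 9 compared immediate early and stress genes, 0 passed 2-fold in either direction (median log2 fold -0.10), where the shares over all compared genes would give fewer than 1.

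Markers of other cell types were summed over each list, and their part in the results was not tested. The 10 erythroid markers were at 13775 CPM against 16243 in other neurons, led by *Hbb-y*, and 2 of the 67 cells had a globin share of at least 5%, 31.0% at the most. With such cells left out of both groups (65 Cajal-Retzius cells and 2613 other neurons remaining), 511 genes were higher and 322 lower. Of the GABAergic markers *Gad1*, *Gad2*, *Slc32a1* and *Lhx6* were at 0, and the list was at 63.3 against 1325 CPM. Mesenchyme markers had 8 UMIs in all (12.1 against 61.2 CPM), with 4 of 8 at 0 and no more than 2 UMIs for any of them. Macrophage markers had 4 UMIs, led by *Cx3cr1* and with 6 of 8 at 0, and endothelial markers had 1 UMI, of *Cldn5*, with the other 5 at 0. Diencephalic neuron markers were at 469 against 314 CPM, of which *Lhx9*, also expressed in the pallium, made 265 of 311 UMIs, and 6 of 10 were at 0. The 12 apical progenitor markers, 7 of them used in the rule, were at 1791 against 1400 CPM, and pallial glutamatergic markers at 994 against 679 CPM.

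*Reln* and *Trp73* also occurred apart from each other, and the Cajal-Retzius cells were set beside neurons with one of them. In 88 neurons with *Trp73*, *Reln* under 3 UMIs and no *Gad1* or *Gad2* (709072 UMIs, median 6735 per cell), *Trp73* was at 378 CPM. Of the 264 *Mcidas* UMIs of the other neurons, 228 lay in those 88 cells. *Mcidas* was at 322 CPM (281 to 366) there against 182 in Cajal-Retzius cells, *Ccno* at 367 against 161, *Gmnc* at 774 (711 to 842) against 443 and *Foxj1* at 202 against 122, with intervals apart for all 4. *Cdkn1a* was at 743 CPM against 756 and *Rsph1* at 57.8 against 61.8, with overlapping intervals. *Lhx1* was the lower in those cells, at 234 CPM (200 to 273) against 395.

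Of 9350 genes compared with those 88 cells, 573 (6.13%) were at least 2-fold higher in the Cajal-Retzius cells and 318 (3.4%) at least 2-fold lower. Of the 25 leading higher genes 2 were among the former and none among the latter, with a median fold of 1.13. *Neurog2* was at 34.6 against 238 CPM (0.145-fold) and *Lmx1a* at 15.1 against 64.9 CPM. *Ephb1*, an ephrin receptor, was higher at 57.2 against 8.46 CPM (6.77-fold), as was *Glis3*, a zinc finger factor, at 63.3 against 9.87 CPM (6.41-fold). *Pcdh9* was at 404 against 97.3 CPM. *Rspo3* was at 755 CPM against 1388 in those 88 neurons and 1336 in the 733 cells with A at or above N and *Lmx1a* plus *Wnt3a*.

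**Figure D3:**
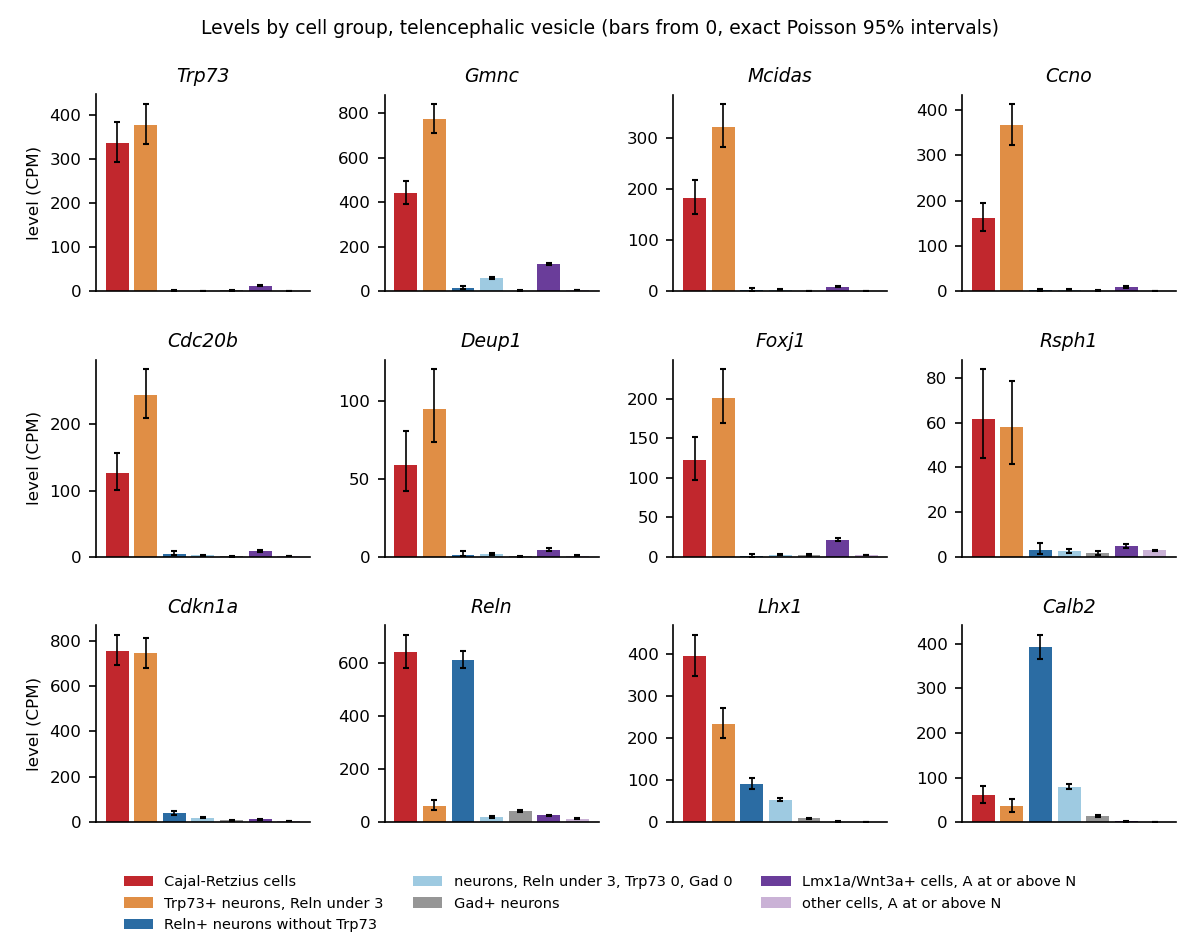
Level (CPM) of 12 genes in 7 groups of cells of the telencephalic vesicle, with bars from 0 and exact Poisson 95% intervals. *Trp73* and *Reln* are genes of the selection; the red and orange bars, of both groups with *Trp73*, stand above the rest for *Gmnc*, *Mcidas*, *Ccno*, *Cdc20b*, *Deup1*, *Foxj1*, *Rsph1* and *Cdkn1a*, and the dark blue bar, of *Reln* neurons without *Trp73*, for *Calb2*.

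The other group, 187 cells with N above A, at least 3 *Reln* UMIs, no *Trp73* and no *Gad1* or *Gad2* (2112502 UMIs, median 9089), had a *Reln* level of 611 CPM against 640. Erythroid markers were at 51631 CPM there against 13775 in the Cajal-Retzius cells, with a globin share of up to 64.8% in a cell. Of 9407 genes compared with it, 530 (5.63%) were at least 2-fold higher in the Cajal-Retzius cells and 378 (4.02%) lower, and all 25 leading higher genes were among the former, between 8.18-fold and 129-fold. These 187 cells are part of the other neurons over which the 25 genes were picked, so that this count is largely set by the choice of genes. *Foxj1* had 2 UMIs in those 187 neurons, *Mcidas* 5 and *Ccno* 5, and *Cdkn1a* was at 38.8 CPM. *Calb2* was at 392 CPM (366 to 420) there against 60.3 in the Cajal-Retzius cells. *Onecut1*, a factor of many early neurons, had 1 UMI in the Cajal-Retzius cells and 56.3 CPM in the other group, and *Onecut2* was at 46.7 against 257 CPM. *Arpp21*, a cyclic AMP regulated phosphoprotein, was at 4.52 against 101 CPM and *Lrfn5*, a synaptic adhesion molecule, at 15.1 against 174 CPM. *Ebf1* was at 300 against 542 CPM, and *Ebf3* at 432 against 116 CPM. With cells of a globin share of at least 5% left out of both groups (65 and 165 remaining), an alternative chosen after seeing the data, 487 genes were higher and 399 lower, with *Calb2* at 61.7 against 437 CPM and *Ebf3* at 439.8 against 127 CPM.

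Among the 67 cells, variation was read with each cell thinned to 2500 UMIs, over 2526 genes with a mean of at least 0.2 UMIs, of which the median variance over mean was 1.08. Globin genes led (*Hbb-y*, 178; *Hba-x*, 77.8; *Hba-a1*, 40.6). They took 7 of the first 15 places, with 407 *Hbb-y* UMIs in a single thinned cell. *Crabp1* (9.27), a retinoic acid binding protein, had UMIs in 4 thinned cells. *Dcc*, the netrin receptor (9.09), and *Malat1* (8.42), a nuclear RNA, had UMIs in all 67. *Gmnc* followed at 8.23, with UMIs in 15 thinned cells. *Tuba1a* (6.81), *Ptprd* (6.27), *Nrg3* (5.27) and *Tmsb4x* (4.89) completed the 15, and 13 of the 15 were also found at a depth of 5000 UMIs over 63 cells.

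The cells were also ordered by log2((N + 1)/(A + 1)) and parted into groups of 23, 22 and 22, from the lowest to the highest neuronal against progenitor counts. This axis uses genes of the selection, and the first group was deeper (median 12953 UMIs against 7119.5 and 7124.5). All cells above 15000 UMIs lay in the first group. The order was not repeated without them or without the Scrublet doublets, so the part of such cells in it was not tested. Without cells above 15000 UMIs, the fold over other neurons went from 0.457 to 0.290 for *Ccnd2* and from 4.63 to 4.85 for *Rspo3*. *Gmnc* was at 731, 66.98 and 251 CPM along the 3 groups, which rested on few cells. In the first group 1 cell held 96 of 240 UMIs, and without it the level was 455 CPM. In the last group 2 cells held 41 of 43 UMIs, and without them it was 12.7 CPM. *Ccno* was at 204, 152 and 87.5 CPM, *Deup1* at 82.3, 60.9 and 11.7, and *Rspo3* at 966, 773 and 333. *Ccnd2* was at 286, 36.5 and 46.7 CPM, *Cdk1* at 189, 116 and 29.2, and *Sfrp1*, a Wnt antagonist of progenitors, at 119, 6.09 and 5.83. The intervals of the first and last group were apart for each of these genes. Opposite to them, *Lhx1* was at 241, 560 and 531 CPM and *Ebf1* at 149, 432 and 461. *Cdkn1a* was highest in the middle group, with 609, 1187 and 624 CPM.

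Summed lists followed different orders along the axis. Multiciliation regulators were at 2188, 1194 and 910 CPM and the hem, BMP and Wnt genes at 1536, 1072 and 630. Motile cilium components were at 948, 1681 and 578 CPM and p53 family targets at 1968, 3313 and 2112, both highest in the middle group. Cell cycle genes were at 4418, 3276 and 1919 CPM. These orders, too, were not repeated without the cells above 15000 UMIs of the first group.

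**Figure D4:**
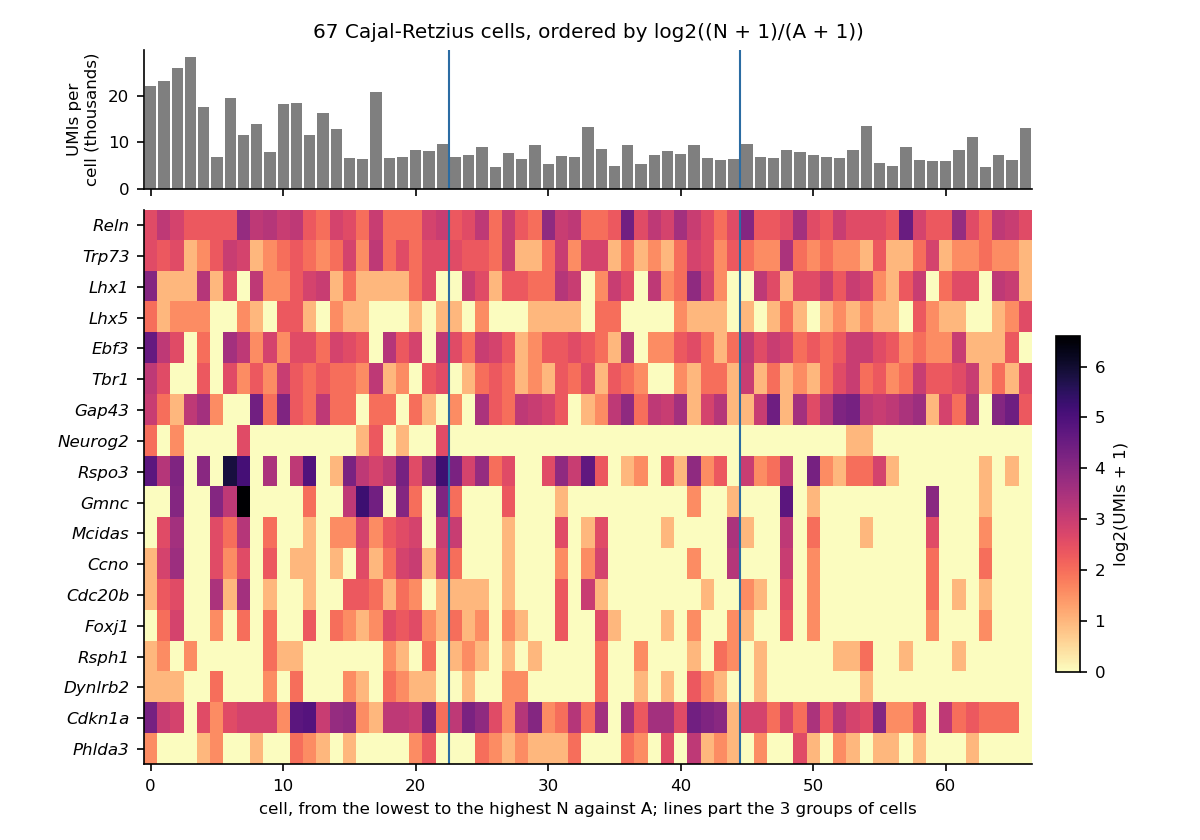
UMIs of 18 genes (colour, log2(UMIs + 1), not scaled for depth) in each of the 67 Cajal-Retzius cells, ordered by N against A, with the UMIs per cell as bars above. *Reln* and *Trp73* selected the cells; *Cdkn1a* has a UMI in 63 cells, whereas *Gmnc*, in 20 cells, and *Mcidas*, in 28, are found most often among the cells on the left.

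In the septal explants the same rule found 74 cells of 1848 with N above A (4.004%, 3.16 to 5.001%; median 11979 UMIs). Folds were taken within each library and set side by side, since kit, stage and processing differ between them. Of 8001 genes compared there, 429 (5.36%) were at least 2-fold higher and 224 (2.8%) at least 2-fold lower. Over the 7419 genes compared in both, 272 were higher in the vesicle and 336 in the septum with 142 in common (52.2% and 42.3%), and 178 and 200 were lower with 65 in common (36.5% and 32.5%). Of the 25 leading higher genes, 11 were compared in the septum, all 11 were above 1-fold and 7 above 2-fold (median 4.60), and all 9 compared leading lower genes were at least 2-fold lower. The rule asks for 0 UMIs of *Gad1* plus *Gad2* here too, and 272 of the 1774 other septal neurons had such UMIs. The count of lower genes is thus set in part by the rule. Against septal neurons of 0 *Gad1* plus *Gad2*, 4 leading lower genes were compared, all at least 2-fold lower.

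Several markers and p53 family targets were higher in both libraries. *Lhx1* was at 7.53-fold in the septum (6.69 to 8.46), *Ebf3* at 6.40-fold and *Cacna2d2* at 6.44-fold. *Cdkn1a* was at 1353 against 204 CPM, 6.63-fold (6.24 to 7.04), *Phlda3* at 6.62-fold and *Pidd1* at 4.52-fold, and 11 of the 19 p53 family targets compared in both were higher there. *Pde1a* (9.15-fold) and *Sct* (7.52-fold) were higher, and so were the 9 motile cilium components compared in both libraries, 2 of them by the level filter alone, with *Dynlrb2* at 4.60-fold and *Rsph1* at 2.51-fold. Over all 7419 genes compared in both, 4.53% were higher in the septum.

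The multiciliation regulators differed in size of fold. None of the 7 members compared in both passed 2-fold in the septum. That count is near the share over all genes compared there, of which 5.36% were at least 2-fold higher. *Mcidas* had 14 UMIs in the 74 cells, 1.10-fold (0.594 to 1.88), *Ccno* was at 1.57-fold (1.27 to 1.92) and *Foxj1* at 1.91-fold (1.39 to 2.58). *Gmnc* (6 UMIs, 1.05-fold), *Cdc20b* (3 UMIs, 3.07-fold, 0.584 to 10.3) and *Deup1* (13 UMIs, 3.24-fold, 1.66 to 5.86) were below the level filter in the septum. *Dbx1* was at 0.882-fold (0.595 to 1.26) and *Pcdh8* at 0.351-fold with 6 UMIs. *Calb2*, below 1-fold in the vesicle, was at 1.77-fold (1.61 to 1.94) in the septum, and *Tbr1* was at 2.34-fold. The difference between the libraries was not tested.

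**Figure D5:**
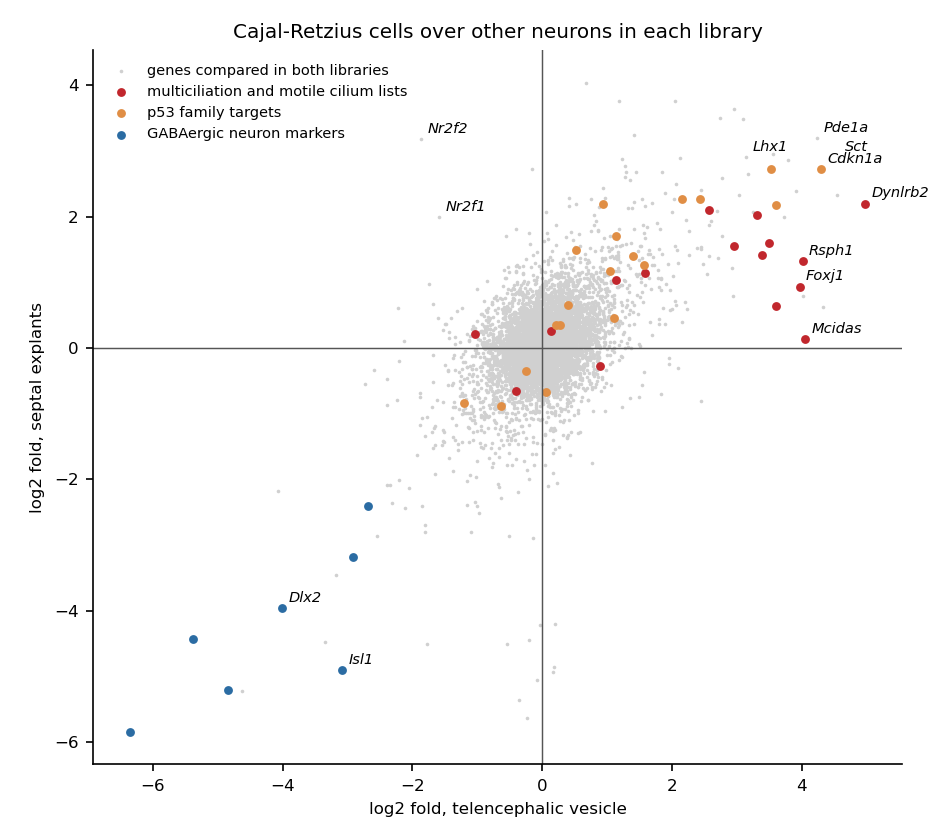
Log2 fold of Cajal-Retzius cells over other neurons for the 7419 genes compared in both libraries, vesicle on the horizontal and septal explants on the vertical axis. Multiciliation and motile cilium genes (red) lie mostly right of the zero line with smaller septal folds, p53 family targets (orange) mostly in the upper right, GABAergic markers (blue) in the lower left, and *Nr2f1* and *Nr2f2* in the upper left.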

How the data were processed

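The authors deposited raw counts, UMIs per gene and barcode, without normalisation. The submitters' processing notes name Cell Ranger 7.1.0 for the telencephalic vesicle and 2.1.1 for the septal explants, and mm10; whether intronic reads were counted is not given in the sources used here. Groups were taken from the labels, cells by the rule. The members and gene lists were chosen with earlier results of these data known, and the lists of multiciliation regulators, motile cilium components and p53 family targets were added after values were seen. Counts were summed per group, scaled to CPM, and compared for genes with a mean of at least 10 CPM; the 17 genes of the rule were left out. Named genes are the 25 largest and 25 smallest folds with intervals apart, members of lists past 2-fold (otherwise the most abundant), the genes of the study and the 15 most variable; others named, such as *Ephb1*, *Glis3*, *Onecut1*, *Arpp21*, *Lrfn5* and genes ordered along N against A, were picked after their values were seen. The calculation was tested on simulated counts. Gene positions are GENCODE (GRCm38), start windows RefSeq. Scripts ran on Python 3.11.15 with pandas 2.3.3, scipy 1.17.1 and numpy 2.4.6, and Scrublet as in scanpy 1.11.5. Some genes are not reported here. Alternatives covered cell, count and gene filters, the reference, thinning and scaling.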

Additional observations from a re-analysis of the deposited data

Results flagged for a closer look

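*Nr2f1* and *Nr2f2*, nuclear receptors graded across the cortex, were both lower in the Cajal-Retzius cells of the vesicle and both higher in those of the septum. The log2 fold of Cajal-Retzius cells over other neurons was -1.59 for *Nr2f1* in the telencephalic vesicle (124 against 372 CPM) and 1.996 in the septal explants (22.9 against 5.75 CPM). For *Nr2f2* it was -1.86 in the vesicle (90.4 against 329 CPM) and 3.18 in the septum (19.1 against 2.104 CPM). The difference was not tested, with 1 library per tissue and kits, stages and genotypes that differ.

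The gene list of the vesicle library holds a LacZ sequence, which no comparison used. It had 11 UMIs in 9 barcodes, at most 3 in one (median 16102 UMIs per barcode), and 0 in cells with N above A, the Cajal-Retzius cells among them.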

How the results depend on the processing

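Of 54 comparisons of the main values with an alternative, 38 stayed within the set limits and 16 moved. A *Reln* minimum of 5 UMIs gave 42 cells and of 1 UMI 102. Genes higher and lower numbered 1120 and 820 with every cell thinned to 2500 UMIs, 783 and 518 at a mean of 5 CPM, 105 and 71 at 50 CPM, and 2216 and 824 without a filter. Without cells above 15000 UMIs, chosen after seeing the data, 526 were lower. Thinning lowered the share of cells with a UMI to 25.4% for *Mcidas*, 26.9% for *Foxj1*, 71.6% for *Cdkn1a* and 50.7% for *Lhx1*. With a reference of *Gad1* plus *Gad2* of 0 in the septum, also chosen after seeing the data, the 4 leading lower genes still compared were at least 2-fold lower. Of 162 named genes that were followed through the alternatives, 158 kept their side of 1-fold throughout. Settings of the level filter alone leave folds unchanged and could not move a gene. *Cdh8* went to a log2 fold of 0.030 and *Pou3f1* to 0.43 against neurons of 0 *Gad1* plus *Gad2*, *Col3a1* to 0.65 with *Reln* of at least 1 UMI, and *Kcnip4* to -1.92 without cells above 15000 UMIs; the cause was not tested. Other named genes, such as *Nhlh2* and *Lrp8*, were not among the 162. Against neurons of 0 *Gad1* plus *Gad2*, *Nhlh2* went from 1.42-fold to 0.918-fold and *Lrp8* from 0.991-fold to 1.04-fold. Genes with few UMIs are limited by depth. No paired analysis was possible because each tissue had 1 library and the labels give no replicate numbers.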
